A study of Mus musculus with 41 samples.

Results

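Basal and myoepithelial lineage genes were followed through a panel of mammary tumors that lack Trp53. The set held 9 genes, Krt5, Krt14, Krt17, Krt6a, Krt6b, Krt15, Trp63, Dsg3 and Col17a1, out of 20913 genes with a usable probe, and each was found by its exact name on the array and read from its probe of highest mean signal. All 9 passed the filter on low signal.

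Mammary ducts are built of an inner luminal layer and an outer basal layer whose cells contract to expel milk. Basal cells fill their cytoplasm with the keratin pair KRT5 and KRT14, are held to the basement membrane by hemidesmosomes that contain type XVII collagen, and depend on the transcription factor p63, the product of Trp63. KRT15 is a further keratin of stratified basal layers, KRT6A, KRT6B and KRT17 are induced in wounded or hyperproliferative epithelium, and desmoglein 3, the product of Dsg3, joins neighbouring basal cells in desmosomes. Basal keratins are used to sort human breast cancers into subtypes, and mammary tumors of Trp53-null mice are known to hold basal, luminal and spindle cell forms.

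Each of the 41 tumors arose from mammary duct tissue of Trp53-null BALB/c donors, 4 animals aged 8 weeks, placed in the cleared inguinal fat pads of wild-type female BALB/c mice at 3 weeks of age. The transplanted epithelium was therefore null in every group, whereas the host stroma was wild type. Recipients were fed a diet with 10% of its energy from fat throughout (LFD), a diet with 60% throughout (HFD), or were switched between them at 10 weeks of age, from high to low (HFD-LFD) or from low to high (LFD-HFD). Tumors were taken at about 1 cm in diameter and were called early when the latency was under 52 weeks and late otherwise. Of the 29 epithelial tumors, 8 arose under LFD, 8 under HFD, 7 under HFD-LFD and 6 under LFD-HFD, and 14 were early. The 12 spindle cell tumors came evenly from the regimens, 3 from each, and 3 were early. Tumors carry their label names, and the plots leave out the shared prefix MSU_. The labels call the former group variable in morphology, and it is named epithelial here after the study's text.

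RNA of each tumor was hybridised with Universal Mouse Reference RNA, a pool from 11 mouse cell lines, on a 2-color array, and every value below is a log2 ratio of tumor over reference unless it is called a difference. A value of 0 therefore means the same signal as in the pool and not absence. The sample labels place the tumor in the Cy5 channel while the methods text places the reference there, so the direction used here, taken from the labels, is opposite to that text. Across the 41 arrays the Cy5 signal varied more than the Cy3 signal for 83.9% of probes. The SD of the Cy5 signal of the 9 genes ran from 0.56 to 3.15 and that of Cy3 from 0.53 to 0.95, as a pool common to all arrays would give in Cy3.

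In the tumor channel, spots well above background made up 52.4% to 94.9% of those on epithelial arrays and 59.1% to 72.7% of those on spindle cell arrays. Outlier spots, as marked by the scanner software, were left out, which cost tumor MSU_60L its values of Krt5, Krt14, Krt17, Krt15 and Trp63, tumor MSU_42L4B its Krt14 and tumor MSU_82L its Krt15. In the reference channel 8 of the 9 probes were well above background on all 41 arrays and that of Dsg3 on 38. Spindle cell tumors MSU_M33R and MSU_M84R were the most alike of the 66 spindle cell pairs, with an SD of the difference of 0.36 over 4360 probes and an r of 0.91. They carry the names of 2 tumors and were counted as 2, and whether both came from 1 tumor was not tested, so the comparisons between histologies and the pubertal comparisons that hold them are also given without them. Epithelial and spindle cell arrays were scanned in separate sessions, on different scanners and with different versions of the scanner software, so a difference between histologies cannot be told apart from one between these. The p-values measure the spread between tumors, and tumor numbers recur on 2 tumors in 3 instances, so some may share a host.

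The tissue labels were checked against marker genes. Krt8, Krt18, Epcam and Cdh1, which mark luminal or general epithelium, were well above background in all 29 epithelial and all 12 spindle cell tumors, and none of the 8 luminal genes listed reached an adjusted p of 0.05 between the histologies by limma. Of 10 mesenchymal genes 6 were higher in spindle cell tumors (4 without MSU_M33R and MSU_M84R) and none lower, with Vim, the intermediate filament of mesenchymal cells, 1.19 higher on the log2 scale (adjusted p = 0.00482).

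The probe sequences are given for the genes with the least certain probes. Krt6a and Krt6b lie side by side on chromosome 15 and encode closely related keratins, so the first 30 bases of their probes are given 5′ to 3′ with no part marked in capitals. The Krt6a probe is A_52_P104658 at chr15:101520862-101520921, and the Krt6b probes are A_66_P101935 at chr15:101506492-101506551, which represents the gene, and A_51_P126275 at chr15:101509450-101509509, all on the minus strand of NCBI37/mm9.
Krt6a A_52_P104658: agcaagaagagctacaggcagtgaattctg
Krt6b A_66_P101935: cttgtgacaacacagtcattagtcctgtgc
Krt6b A_51_P126275: accgtgaggcagaacctggagcctatgttt
No 25-base run of any keratin probe of the set was found in another probe of the array. The longest run shared by probes of different keratins of the set was 12 bases, between Krt6b A_51_P126275 and the second Krt5 probe, A_66_P116076. Runs were sought among the probes only and not in transcripts, so whether a Krt6b probe also read Krt6a RNA was not tested. Exon and UTR positions were not read, since no annotation of this build was used here.

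Trp63 had 4 probes on the plus strand of chromosome 16. The brightest, A_55_P2161055 at chr16:25871159-25871218, is given whole with its run of CAG repeats in capitals, and A_55_P1952056 at chr16:25821344-25821403, A_52_P338796 at chr16:25867718-25867777 and A_51_P216550 at chr16:25892012-25892071 by their first 30 bases.
Trp63 A_55_P2161055: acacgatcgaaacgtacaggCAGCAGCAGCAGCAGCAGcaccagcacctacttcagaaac
Trp63 A_55_P1952056: acttaccatgtgtcctggctatagcttttc
Trp63 A_52_P338796: cagtcccatataccatgcacttaactcttt
Trp63 A_51_P216550: caaaaggtactttcttatagacatgatact
The brightest probe holds 6 CAG copies in a row and each other Trp63 probe at most 1. A run of 6 or more CAG or CTG copies stood in 6 of the 27307 probes that passed the filter, or 0.022%. All 6 had an SD under 0.5 over the 41 tumors, against 36% of all probes, and their median SD was 0.27 against 0.60. The brightest Trp63 probe, with an SD of 0.26, is itself among the 6. Whether the repeat accounts for the small spread was not tested.

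The basal keratins Krt5 and Krt14 ranged widely among epithelial tumors. Krt5 lay between -3.61 (MSU_13L) and 1.96 (MSU_17R), with a median of -1.84, and was above the reference in 4 of 28 tumors. In spindle cell tumors it lay between -3.86 (MSU_M128L) and 2.67 (MSU_M33R), with a median of -2.77. The ranges overlapped, and MSU_M33R, MSU_M84R and MSU_M32L were the only spindle cell tumors above 0.

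Krt14 lay between -3.03 (MSU_13L) and 2.27 (MSU_17R) in epithelial tumors, with a median of -0.24. The spindle cell range was -2.78 (MSU_M128L) to 3.87 (MSU_M33R), with a median of -0.99. As with Krt5, the same epithelial tumor held the highest value and the same one the lowest. The 60 bases of the Krt14 probe spread over 606 bases of the genome, chr11:100064683-100065288 on the minus strand.

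Krt17, which accompanies Krt5 and Krt14 in injured and in some basal epithelium, ran from -3.63 (MSU_13L) to 2.89 (MSU_17R) in epithelial tumors, a 91.7-fold range. Its spindle cell values ran from -3.86 (MSU_M129L) to 3.44 (MSU_M33R). Epithelial tumors MSU_17R, MSU_117L, MSU_66L and MSU_56R, of 3 regimens, were the ones above 2.

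The hyperproliferation keratins Krt6a and Krt6b differed in range among epithelial tumors when Krt6b was read from its chosen probe, A_66_P101935. Krt6a ran from -2.87 (MSU_108R) to 2.49 (MSU_56R) in epithelial tumors, a 40.8-fold range. Krt6b ran from -4.54 (MSU_109L) to 5.42 (MSU_56R), a 999-fold range. The SD of Krt6b, 2.44 over 29 epithelial tumors, was exceeded by 0.0717% of all genes, and its second probe gave an SD of 1.70 in the same tumors and an r of 0.80 with the first over 41 tumors. By that second probe, A_51_P126275, the epithelial range was -2.51 (MSU_108R) to 3.86 (MSU_56R), or 82.7-fold. In MSU_31R it read 0.19, with Krt6a at -0.15 and the chosen Krt6b probe at -4.03. In MSU_65R it also read 0.19, with Krt6a at -0.48 and the chosen probe at 0.63. In spindle cell tumors Krt6b was at 6.19 in MSU_M33R, 6.01 in MSU_M84R and 2.92 in MSU_M32L and at 1.02 or below in the other 9.

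Krt15 stood apart from the other keratins. It was below the reference in all 27 epithelial and 12 spindle cell tumors with a value, with medians of -2.94 and -3.29. Only MSU_117R at -0.06, MSU_101L4A at -0.09, MSU_11L at -0.25, MSU_27L4A at -0.85 and MSU_31R at -0.91 among epithelial tumors were above -1. MSU_M32L at -0.05 was the sole spindle cell tumor there. MSU_M33R and MSU_M84R, which led the other keratins, had Krt15 at -3.26 and -3.08.

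Col17a1, the hemidesmosomal collagen, had the largest SD of the set in epithelial tumors, while the range of Krt6b was wider. Both probes were well above background in 28 of the 29. Its values ran from -5.62 (MSU_42L4B) to 3.60 (MSU_66L), a 598-fold range with an SD of 2.73 (n = 29), and 0.0287% of all genes had a larger SD. The median SD over all genes was 0.56 in epithelial and 0.51 in spindle cell tumors. In spindle cell tumors the range was -4.32 (MSU_M128L) to 4.31 (MSU_M33R), with a median of -2.20.

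Dsg3 was above the reference in 24 of 29 epithelial tumors, from -1.91 (MSU_108R) to 3.0 (MSU_56R) with a median of 1.21. Among spindle cell tumors it ran from -3.10 (MSU_M118R) to 3.99 (MSU_M33R), and its signal was well above background in 8 of the 12. Its second probe, A_55_P2163003, correlated with the first at an r of 0.83 over 41 tumors.

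Trp63, read from its brightest probe, was the exception. It stayed between 0.17 (MSU_M32L) and 1.26 (MSU_M86R) over 40 tumors, and 97.1% of all genes had a larger SD in epithelial tumors than its 0.25. The other probes of the gene spread from -4.94 to 2.98 (A_51_P216550), from -4.07 to 3.70 (A_55_P1952056) and from -2.05 to 2.95 (A_52_P338796). These 3 probes correlated with each other at an r of 0.87 to 0.92 over 41 tumors, and with the brightest probe at -0.06 to 0.01. Their r with Krt14 was 0.53, 0.59 and 0.48 over 27 epithelial tumors, in the order just given, against -0.12 for the brightest probe. The rule takes the brightest probe, so the values below called Trp63 are those of the CAG-repeat probe, and the others are named by their identifier.

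**Figure D1:**
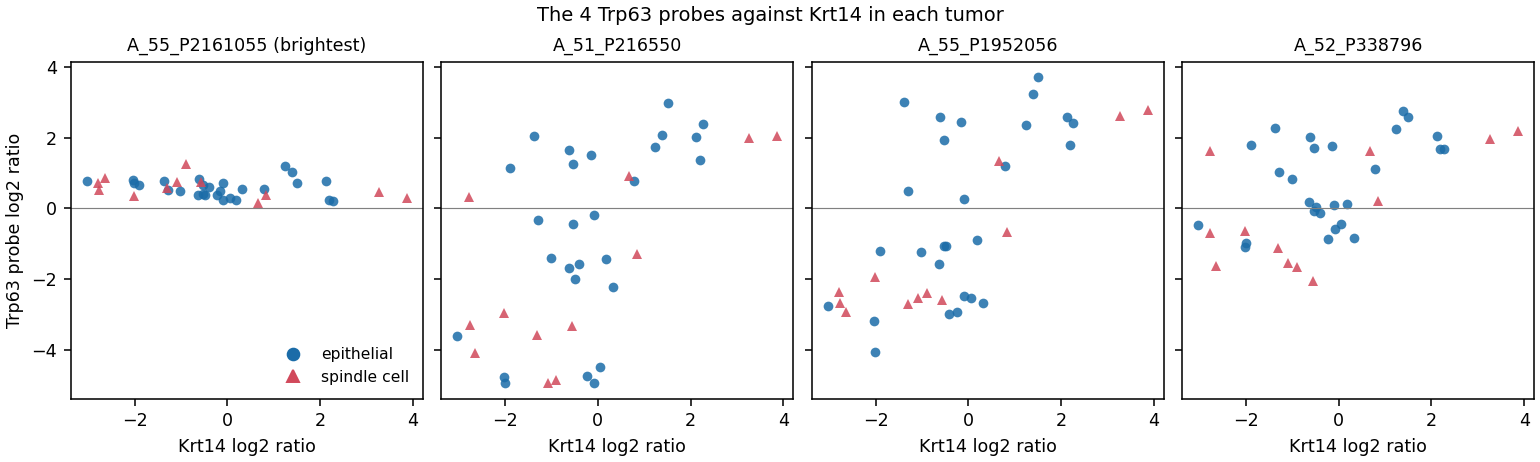
Log2 ratio of each of the 4 Trp63 probes (vertical axes) against that of Krt14 (horizontal axes) in each tumor, with epithelial tumors as circles and spindle cell tumors as triangles. A_55_P2161055 lies in a flat band between 0.17 and 1.26, whereas the other probes spread over several log2 units and are higher where Krt14 is higher.

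The tumors with the highest values were largely shared between genes. MSU_M33R held the highest of all values for Krt5, Krt14, Krt17, Krt6a, Krt6b, Dsg3 and Col17a1. MSU_M84R was second for these genes but for Col17a1, where epithelial tumor MSU_66L was level with it at 3.60. MSU_M33R was a late tumor of an LFD mouse and MSU_M84R an early tumor of an LFD-HFD mouse.

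**Figure D2:**
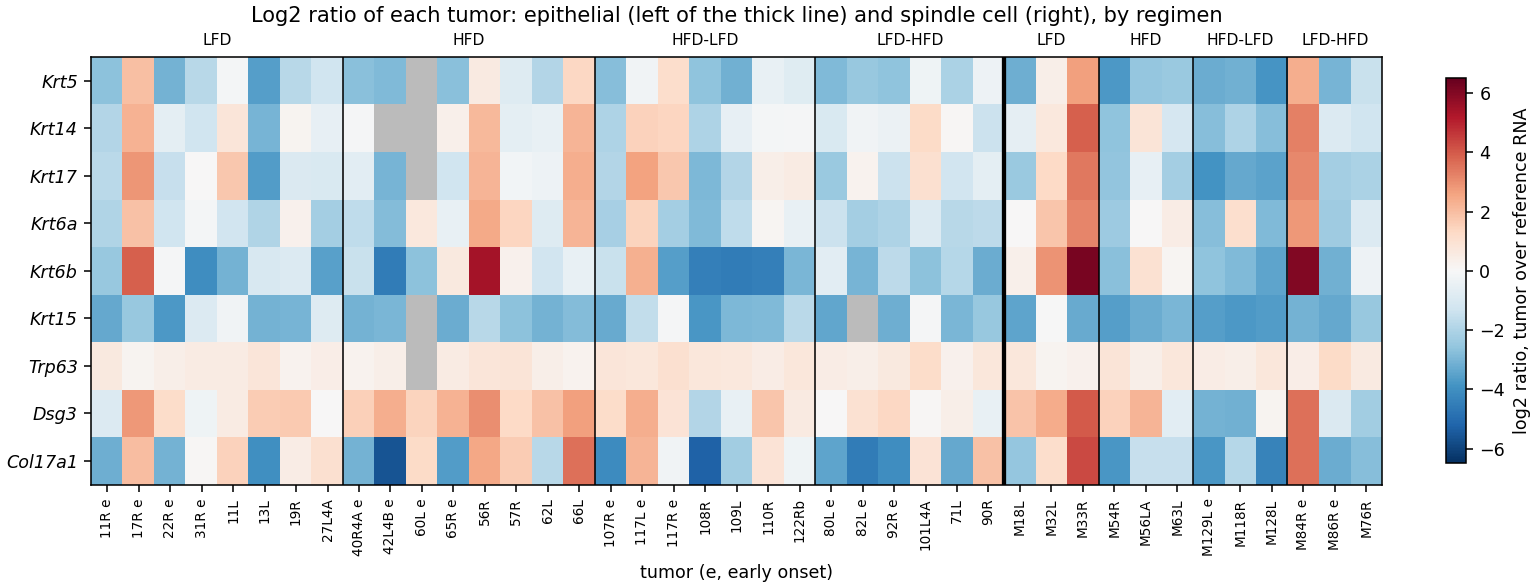
Log2 ratio of the 9 genes (rows) in each tumor (columns, grouped by histology and regimen, with e for early onset), on a color scale from blue (below the reference) through white to red (above it). MSU_M33R and MSU_M84R are red for 7 genes and blue for Krt15, and Trp63 is pale throughout.

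Correlation across tumors was measured within each histology for all 36 pairs of genes, 72 pairs in all, with permutation tests of 100000 resamples and Benjamini-Hochberg adjustment over the 72. Among epithelial tumors the 28 pairs without Trp63 had an r between -0.11 and 0.89, with a median of 0.59. Adjusted p was under 0.05 by r for 21 of them and by both r and rho for 18. The arrays share 1 reference pool, and pairs that share a gene are not independent of each other.

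Krt5 and Krt17 were the closest epithelial pair, with an r of 0.89 and a rho of 0.91 over 28 tumors (permutation p = 1e-05 for each, the smallest that the resamples allow, adjusted p = 9e-05 and 0.00012). Without the 2 tumors farthest from the Krt5 median r was 0.86, after centring within slides 0.89, and in the largest scan session, 27 tumors, 0.89. In each pair below the 2 farthest tumors are likewise those of 1 gene, the one named first in the opening list. The keratin partners Krt5 and Krt14 had an r of 0.78 and a rho of 0.70 over 27 tumors (permutation p = 1e-05 and 0.00016, adjusted p = 9e-05 and 0.00096), and an r of 0.70 without the 2 farthest, 0.79 within slides and 0.78 in the largest session. Col17a1 followed Krt5 with an r of 0.86 and a rho of 0.82 over 28 tumors (permutation p = 1e-05 for each, adjusted p = 9e-05 and 0.00012), and with an r of 0.84 without the 2 farthest, 0.85 within slides and 0.86 in the largest session.

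Krt6b, by its chosen probe, had its highest r with Krt6a and Dsg3. Its r with Krt6a was 0.69 and its rho 0.57 over 29 tumors (permutation p = 5e-05 and 0.00142, adjusted p = 0.000212 and 0.00457), with an r of 0.62 without the 2 farthest and of 0.70 both within slides and in the largest session. With Dsg3 r was 0.65 and rho 0.60 (permutation p = 0.00014 and 0.00085, adjusted p = 0.000531 and 0.00322), with an r of 0.53 without the 2 farthest, 0.65 within slides and 0.74 in the largest session. With Krt5 r was 0.34 and rho 0.14 (permutation p = 0.0718 and 0.479, adjusted p = 0.109 and 0.515). Whether these correlations differ from each other was not tested.

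Krt15 followed Krt5 by rank, with a rho of 0.75 and an r of 0.59 over 27 tumors (permutation p = 2e-05 and 0.00155, adjusted p = 0.00018 and 0.0036). That r was 0.76 without the 2 farthest, 0.61 within slides and 0.58 in the largest session. Its r with Krt6b was -0.11 and its rho -0.17 (permutation p = 0.579 and 0.394, adjusted p = 0.604 and 0.443). The CAG-repeat probe of Trp63 had an r between -0.32 and 0.43 with the other 8 genes. The last value, with Krt15, had an adjusted p of 0.0432 by permutation and fell to an r of 0.09 without the 2 farthest tumors, so it rests on them.

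Among the 12 spindle cell tumors the pairs without Trp63 had a median r of 0.83, but MSU_M33R and MSU_M84R lie apart from the rest and raise it. Over the 10 other spindle cell tumors r was 0.85 for Krt5 with Krt17, 0.68 for Krt5 with Krt14 and 0.85 for Krt5 with Col17a1. For Krt5 with Dsg3 it was 0.23, against 0.63 over the 12. For Krt5 with Krt15 it was 0.96 against 0.42.

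**Figure D3:**
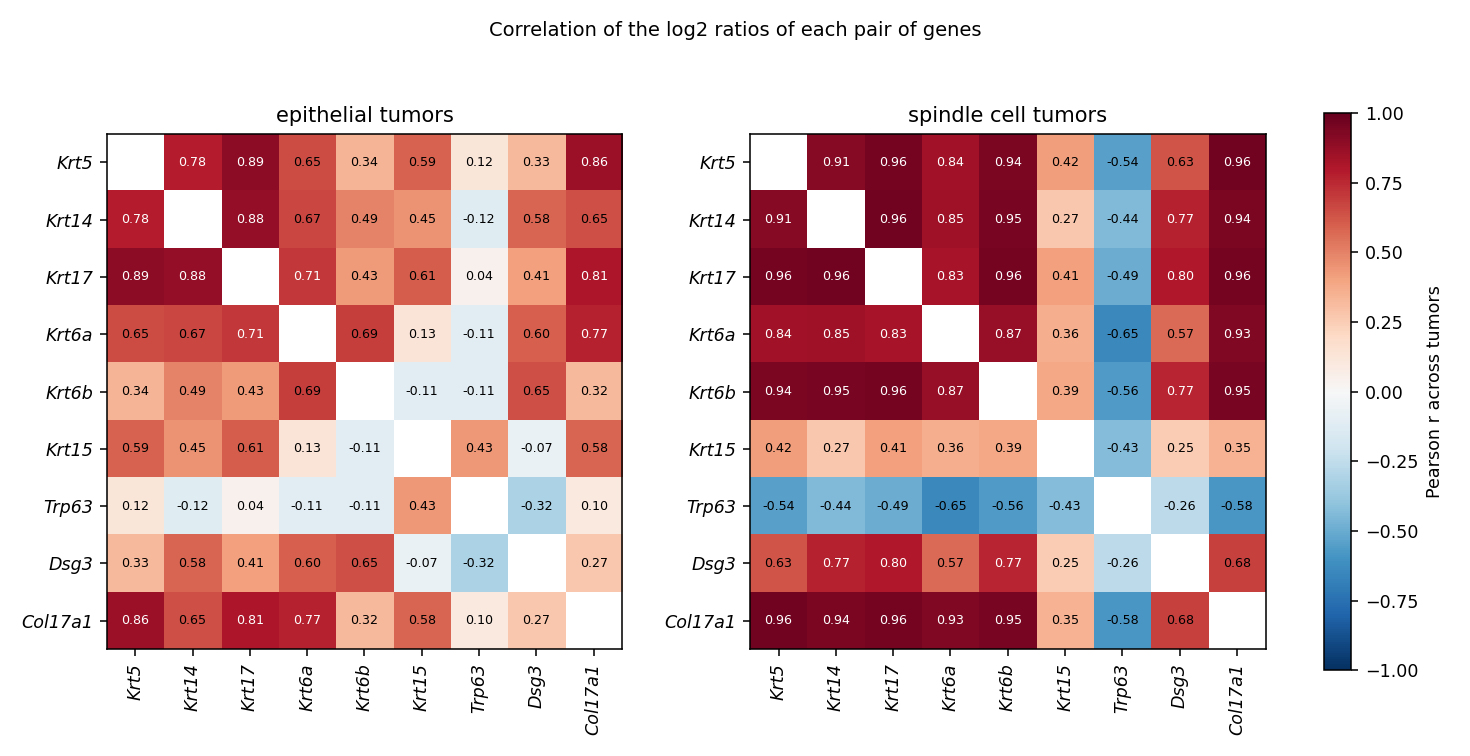
Pearson r of the log2 ratios of each pair of genes across the epithelial tumors and across the spindle cell tumors, on a color scale from -1 (blue) to 1 (red). Krt5, Krt14, Krt17 and Col17a1 form a red block in both panels, and Trp63, by its CAG-repeat probe, is pale in epithelial and blue in spindle cell tumors.

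Of the genes outside the set, those most like the mean of the 9 standardized genes over the 29 epithelial tumors were Dmkn (r = 0.85), Btbd11 (0.84), Hr (0.83), Trim29 (0.83), Krt16 (0.83), 4631405K08Rik (0.82), Perp (0.82) and Hopx (0.81). Each r is a description over tumors that share a reference pool. Krt16 encodes a keratin that pairs with the KRT6 keratins and Perp a desmosomal protein. The luminal keratin genes Krt8 and Krt18 had an r of -0.27 and -0.49 with the same mean.

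Spindle cell carcinomas have lost the appearance of epithelium, and the comparison with epithelial tumors asks which genes went with it. At an adjusted p under 0.05 by limma, 0 of the 9 genes differed, whereas 20.2% of all genes did, 1657 of them higher and 2561 lower in spindle cell tumors (1330 and 3324 with each array centred on its median). None of the 9 reached an unadjusted p of 0.05, against 6973 of all genes. The median difference over the 9 was -0.29 and over all genes -0.07. In bulk tumors, fewer cells of a kind and less RNA per cell cannot be told apart.

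Krt5 averaged -1.76 ± 2.30 (SD, n = 12) in spindle cell and -1.46 ± 1.53 (n = 28) in epithelial tumors, a difference of -0.30 with a 95% interval of -1.5 to 0.90 (adjusted p = 0.762). The difference in Krt14 was -0.29 (interval -1.41 to 0.83, adjusted p = 0.755) and in Col17a1 -0.25 (interval -2.10 to 1.60, adjusted p = 0.877). These intervals hold changes of over 2-fold in either direction for Col17a1 and of over 2-fold downward for the keratins.

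Krt6b went the other way, with 0.13 ± 3.41 (n = 12) in spindle cell and -1.64 ± 2.44 (n = 29) in epithelial tumors, a difference of 1.77 (interval -0.07 to 3.60, adjusted p = 0.167). Krt17 differed by -0.84 (adjusted p = 0.4), Krt15 by -0.60 (adjusted p = 0.25), Dsg3 by -0.57 (adjusted p = 0.496), Krt6a by 0.66 (adjusted p = 0.437) and Trp63 by 0.02 (interval -0.18 to 0.22, adjusted p = 0.928). The narrow interval for Trp63 belongs to the CAG-repeat probe.

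Fitted probe by probe, in an analysis added after the values were seen, 20.4% of 27307 probes were called and 1 gene of the set had a called probe. That was Krt6b by A_51_P126275, 1.80 higher in spindle cell tumors (interval 0.69 to 2.91, adjusted p = 0.0169). Its means were 1.17 ± 1.58 (n = 12) and -0.63 ± 1.70 (n = 29), against the same size of difference and a wider spread for the chosen probe. The other Trp63 probes were lower in spindle cell tumors by value, with differences of -1.2 (A_51_P216550, adjusted p = 0.336), -1.04 (A_55_P1952056, adjusted p = 0.359) and -0.98 (A_52_P338796, adjusted p = 0.116). The last probe was well above background in 4 of 12 spindle cell and 21 of 29 epithelial tumors.

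MSU_M33R and MSU_M84R moved these values. Without them, again chosen after the values were seen, 14.3% of all genes and 1 of the 9 were called. Krt17 averaged -2.13 ± 1.52 in the 10 remaining spindle cell tumors and differed from epithelial tumors by -1.74 (interval -2.98 to -0.51, adjusted p = 0.0492). Krt5 was then at -1.15 (interval -2.21 to -0.10, adjusted p = 0.131), Krt14 at -1.09 (adjusted p = 0.12), Dsg3 at -1.23 (adjusted p = 0.107) and Col17a1 at -1.31 (adjusted p = 0.333). Krt6b by its chosen probe shrank to 0.57 (adjusted p = 0.696). Its called probe, A_51_P126275, was not fitted without the pair. In the 10 remaining spindle cell tumors that probe lay between -0.48 and 1.96, each value above its epithelial mean of -0.63. The median over the 9 genes became -1.09, while that over all genes was -0.06.

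**Figure D4:**
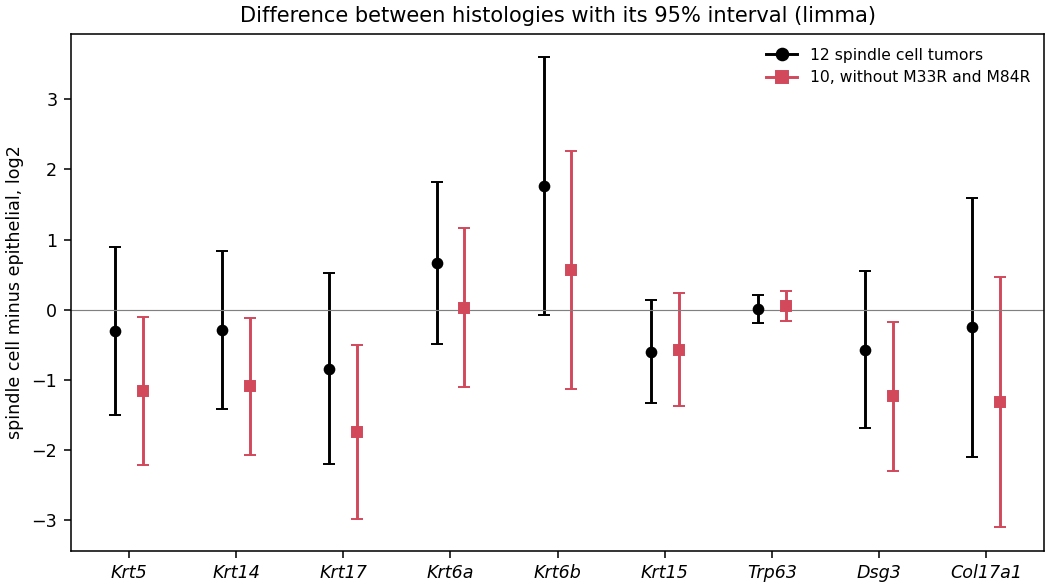
Difference of spindle cell minus epithelial tumors (log2, vertical axis) for each gene with its 95% interval from limma, over all 12 spindle cell tumors (circles) and over the 10 without MSU_M33R and MSU_M84R (squares). Every interval over the 12 spans 0, and without the pair those of Krt5, Krt14, Krt17 and Dsg3 lie below 0, with an adjusted p under 0.05 for Krt17 alone.

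**Figure D5:**
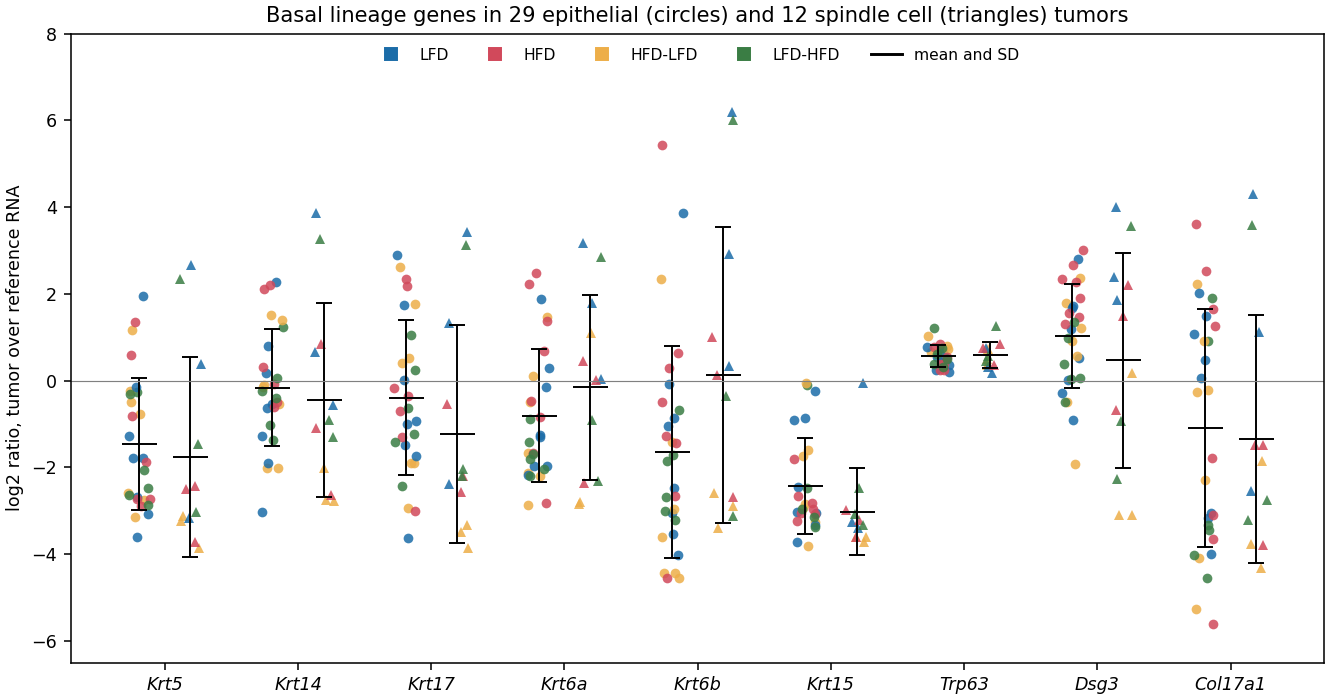
Log2 ratio of tumor over reference (vertical axis) for the 9 genes in epithelial tumors (circles) and spindle cell tumors (triangles), colored by regimen, with the mean and SD of each histology. The epithelial and spindle cell points overlap for every gene, and 2 to 3 spindle cell tumors stand above the rest of their group for most genes other than Trp63.

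Genes that work with the set in basal cells are described by their counts, list by list, against the 20.2% of all genes called in this contrast (14.3% without MSU_M33R and MSU_M84R). Of 10 hemidesmosome and basement membrane genes, Itga3, a laminin receptor subunit, was higher in spindle cell tumors by 0.87 (adjusted p = 0.0419), and Cd151, a tetraspanin that binds laminin receptors, was lower, with a difference of -0.43 (adjusted p = 0.0106). The call of Itga3 was lost with normexp and loess (adjusted p = 0.067) and without MSU_M33R and MSU_M84R (adjusted p = 0.147). The median difference over the list was -0.19, and without the pair it was -0.50, with 3 genes lower and 0 higher.

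Of 9 desmosome genes, Dsc3, a desmosomal cadherin, was higher by 3.0 (adjusted p = 9.89e-06), with 2.09 ± 1.15 in 7 spindle cell tumors and -0.91 ± 1.08 in 28 epithelial tumors. Outlier spots removed the other 5 spindle cell values. Dsg2, the desmoglein of simple epithelia, was lower, with a difference of -1.21 (adjusted p = 0.00644). Without the pair 4 genes were lower and 1 higher. The list's median was -0.31, or -0.82 without the pair. Dsg3, the desmosomal gene of the set, was not called, nor was Col17a1, the hemidesmosomal one.

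Of 10 regulators and targets associated with p63, 2 were lower and none higher, Tfap2c among the lower (-1.34, adjusted p = 0.0357), with a median of -0.71. The call of Tfap2c was lost without MSU_M33R and MSU_M84R (adjusted p = 0.109), although 4 genes were then lower, with a median of -0.97. Of 10 basal-associated regulators and surface genes, Procr, a receptor found on a subset of basal mammary cells, was higher by 1.15 (adjusted p = 0.00489) and Id4, a regulator expressed in basal mammary cells, was lower, with a difference of -2.23 (adjusted p = 0.017), and the median was -0.06, or -0.34 without the pair.

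None of 7 contractile genes of myoepithelial cells was called, with a median of -0.36. The largest difference was that of Oxtr, the oxytocin receptor, at -1.08 (adjusted p = 0.0896). Acta2 was at -1.23 in epithelial and -1.39 in spindle cell tumors, and Myh11 at -2.53 and -2.90. The contractile genes were not high in MSU_M33R and MSU_M84R, with list means of -1.57 and -1.93 within a spindle cell range of -2.81 to -0.44.

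Among squamous differentiation genes 1 of 13, Krt10, was higher by 0.49 (adjusted p = 0.0416), a call lost with each array centred on its median (adjusted p = 0.0767) and without MSU_M33R and MSU_M84R (adjusted p = 0.092). The median over this list was 0.41 and turned to -0.26 without the pair. Of 8 luminal genes, none was called, with a median of -0.63 and the largest difference in Prom1 at -1.12 (adjusted p = 0.072).

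Companion genes in MSU_M33R and MSU_M84R were given as values, since these tumors were singled out after their levels were seen. The mean over the hemidesmosome list was 2.89 in MSU_M33R and 2.48 in MSU_M84R, against a median of 0.72 over spindle cell tumors and a highest epithelial value of 2.09. The laminin genes Lama3 (4.23 and 3.65) and Lamb3 (3.65 and 3.32) and the p63-associated gene Bnc1 (4.31 and 4.38) were high in both. Bnc1 was the highest of its list, whose mean was 1.61 and 1.78 against a spindle cell median of 0.05. In the same list Tfap2c, at 0.98 and 1.08, lay below its spindle cell mean of 1.86. The basal-associated list averaged 0.87 and 0.59 against a spindle cell median of -0.27. Within it Sox10, at -0.68 and -0.48, lay below its spindle cell mean of 1.78. Within the squamous list Krt16 was at 4.91 and 4.29, Sprr1b at 5.45 and 3.77 and Tgm1 at 1.65 and 2.17. Other genes of that list were low in both, such as Krt1 at -6.2 and -5.1 and Lor at -4.51 and -5.10. The mean of the list was -0.91 and -1.11, against a spindle cell median of -4.19, and the value of MSU_M33R was the highest of the spindle cell tumors. The 10 mesenchymal genes averaged 0.14 and 0.07 in them, above the spindle cell median of -0.43.

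Markers of other cell types that a tumor piece could hold moved as follows. Col1a2, Col1a1 and Col3a1, fibroblast collagens, were each higher by 1.2 to 1.22 in spindle cell tumors (adjusted p = 0.00804, 0.0128 and 0.0166), and the call of Col1a1 (adjusted p = 0.0781) and Col3a1 (adjusted p = 0.0857) was lost without MSU_M33R and MSU_M84R. The mesenchymal level, as a mean log2 ratio, lay between -2.49 and -0.04 in epithelial and between -2.15 and 0.42 in spindle cell tumors. Of 3 endothelial genes Pecam1 (0.87, adjusted p = 0.00183) and Kdr (0.56, adjusted p = 0.0027) were higher. None of 5 leukocyte genes was called, and none of 4 adipocyte genes, with Plin1 at -0.83 (adjusted p = 0.378). The mean over the adipocyte genes was 3.42 in MSU_M76R and 1.59 in MSU_M32L, against a spindle cell median of -4.58 and a highest epithelial value of -0.55. Of 4 skeletal muscle genes Mb was lower, with a difference of -0.69 (adjusted p = 0.00927). None of 6 hair follicle keratin genes was called, with Krt71 at -0.67 (adjusted p = 0.0864). The part of such cells in the values of the 9 genes was not tested.

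Diet was compared among the epithelial tumors first over all 4 regimens. An adjusted p under 0.10 by limma was reached by 0.473% of all genes and by 0 of the 9. Dsg3 alone of the 9 had an unadjusted limma p under 0.05 (adjusted p = 0.286), as did 2708 of all 20913 genes. Its values are given by regimen as a description.

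Dsg3 in the 8 HFD epithelial tumors lay between 1.31 (MSU_57R) and 3.0 (MSU_56R), with a mean of 2.06 ± 0.60 (SD). In LFD tumors it averaged 0.84 ± 1.22 (n = 8), from -0.90 (MSU_11R) to 2.80 (MSU_17R). The HFD-LFD mean was 0.63 ± 1.44 (n = 7) and the LFD-HFD mean 0.38 ± 0.67 (n = 6), where MSU_92R at 1.35 was the highest value. By the chosen probe every HFD tumor was above 1, but tumors of each other regimen reached into the HFD range. By the second probe, A_55_P2163003, the HFD tumors ran from 0.60 (MSU_62L) to 5.38 (MSU_56R).

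For HFD against LFD, 0% of all genes were called, 1971 had an unadjusted p under 0.05, and 0 of the 9 were called. Dsg3 was higher in HFD tumors by 1.22 (interval 0.19 to 2.25, adjusted p = 0.455). Krt14 differed by 1.09 (interval -0.35 to 2.53, adjusted p = 0.633), Krt6a by 0.95 (adjusted p = 0.685) and the mean of Col17a1 was -0.64 in both groups (interval of the difference -2.73 to 2.73, adjusted p = 1). No slide held both LFD and HFD epithelial tumors, so slide and regimen cannot be told apart there, and the same holds for HFD-LFD and LFD-HFD against LFD.

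For HFD-LFD against LFD, 1.25% of all genes were called and 0 of the 9. With slide as a random block the 262 genes behind that share became 6. The largest difference of the set was that of Krt6b, -1.32 (interval -3.74 to 1.1, adjusted p = 0.673), and the smallest adjusted p that of Trp63 (0.27, adjusted p = 0.402). For LFD-HFD against LFD, 0% of all genes were called, 1371 had an unadjusted p under 0.05, and 0 of the 9 were called. Col17a1 was at -2.09 ± 2.76 (n = 6) against -0.64 ± 2.38 (n = 8), a difference of -1.45 (interval -4.40 to 1.5, adjusted p = 0.948).

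The study's pubertal comparison joins HFD with HFD-LFD, which had the high fat diet between 3 and 10 weeks of age, against LFD with LFD-HFD. Over all tumors 0.00956% of all genes were called, again 0.00956% without MSU_M33R and MSU_M84R, and 0 of the 9 in either. In epithelial tumors 0% of all genes were called, 2066 had an unadjusted p under 0.05, and 0 of the 9 were called. The differences ran from -0.28 for Krt15 to 0.75 for Dsg3 (interval -0.09 to 1.59, adjusted p = 0.566), with a median of 0.36 against -0.04 over all genes.

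The second Dsg3 probe, A_55_P2163003, differed by 1.51 in the same contrast (interval 0.40 to 2.61, adjusted p = 0.33 over all probes). Slide 1 was the only slide with epithelial tumors of both kinds, MSU_56R and MSU_62L from HFD mice and MSU_80L and MSU_92R from LFD-HFD mice. With slide as a block the contrast rested on these 4, and MSU_56R was among the highest tumors of the set. The difference was then 2.09 for Krt5, 2.84 for Krt17, 2.54 for Krt6a, 3.27 for Krt6b, 1.76 for Dsg3 and 4.11 for Col17a1, each with an adjusted p of 1. Krt14 could not be fitted there.

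Spindle cell tumors were compared over the 4 regimens with 3 tumors each. Here 0% of 20908 genes were called, 782 had an unadjusted p under 0.05, and 0 of the 9 were called, with Dsg3 at an unadjusted limma p of 0.0468 (adjusted p = 0.977). Without MSU_M33R and MSU_M84R 0.00957% of genes and 0 of the 9 were called. Both tumors had a low fat diet in puberty.

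Krt14 in the 6 spindle cell tumors with the pubertal high fat diet ran from -2.78 to 0.84 with a median of -2.33. In the 6 without it the range was -1.31 to 3.87 with a median of 0.05. Krt17 averaged -2.67 ± 1.2 with the pubertal high fat diet, from -3.86 to -0.55, and 0.20 ± 2.75 without it, from -2.40 to 3.44. The ranges overlapped for both genes, and the 3 highest values of each in the second group were those of MSU_M33R, MSU_M84R and MSU_M32L.

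In the 3 HFD-LFD spindle cell tumors Krt5, Krt14, Krt17 and, by its chosen probe, Krt6b were below the reference. Over all 12 spindle cell tumors Krt5 and Krt17 were above it in 3, Krt14 in 4 and Krt6b in 6. Krt5 was at -3.25 in MSU_M129L, -3.11 in MSU_M118R and -3.86 in MSU_M128L. Krt14 was at -2.76, -2.02 and -2.78 in the same order, Krt17 at -3.86, -3.33 and -3.48, and Krt6b at -2.59, -2.89 and -3.40. By the second Krt6b probe, A_51_P126275, the values in that order were -0.05, 0.81 and -0.39. Krt6a was at 1.1 in MSU_M118R against -2.79 in MSU_M129L and -2.84 in MSU_M128L, and Dsg3 at 0.17 in MSU_M128L against -3.1 in each of the others. All 3 were hybridised on 1 slide together with MSU_M18L of an LFD mouse, in which Krt5 was at -3.17, Krt14 at -0.56 and Krt17 at -2.40.

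Whether the pubertal contrast differed between histologies was tested as an interaction. It was called for 0.445% of 20911 genes and for 0 of the 9. An unadjusted limma p under 0.05 was reached by 6 of the 9 and by 2559 of all genes. The interaction was -3.12 for Krt5 (interval -5.33 to -0.92, adjusted p = 0.244), -3.12 for Krt14 (adjusted p = 0.212), -3.30 for Krt17 (adjusted p = 0.279), -3.94 for Krt6b (adjusted p = 0.335), -2.69 for Dsg3 (adjusted p = 0.286) and -2.57 for Krt6a (adjusted p = 0.324). A negative value means that the difference of pubertal HFD minus pubertal LFD was lower in spindle cell than in epithelial tumors. For Krt14 the pubertal LFD mean was 0.84 in spindle cell and -0.42 in epithelial tumors, and the pubertal HFD mean -1.74 and 0.12. The median over the 9 was -3.12 against 0.07 over all genes.

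Without MSU_M33R and MSU_M84R the interaction was called for 0.77% of genes and for 0 of the 9. An unadjusted limma p under 0.05 was then reached by 0 of the 9 and by 2841 of all genes. The values fell in size to -1.68 for Krt5 (adjusted p = 0.489), -1.75 for Krt14 (adjusted p = 0.424), -1.77 for Krt17 (adjusted p = 0.551) and -1.89 for Krt6b (adjusted p = 0.664). With normexp background correction and loess in place of the scanner software's processed signals, 7 of the 9 were called and 11.3% of all genes, against 0.445% with those signals. Once MSU_M33R and MSU_M84R were left out as well, 0 of the 9 and 15% of all genes were called.

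Onset was compared as early against late. In epithelial tumors 0.143% of all genes were called and 0 of the 9. Col17a1 alone of the 9 had an unadjusted limma p under 0.05, as did 2753 of all 20913 genes. Col17a1 averaged -2.10 ± 2.61 (n = 14) in early tumors, from -5.62 (MSU_42L4B) to 2.22 (MSU_117L) with a median of -3.13. In late tumors it averaged -0.16 ± 2.59 (n = 15), from -5.25 (MSU_108R) to 3.60 (MSU_66L) with a median of 0.90. The difference was -1.94 (interval -3.80 to -0.07, adjusted p = 0.357), and 9 of 15 late but 4 of 14 early tumors were above the reference.

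On each of the 3 slides that held epithelial tumors of both onsets, every early tumor had less Col17a1 than every late one. Slide 8 held HFD tumors only, with MSU_40R4A at -3.09 and MSU_65R at -3.65 among early and MSU_57R at 1.65 and MSU_66L at 3.60 among late tumors. Slide 2 held LFD-HFD tumors only, with MSU_82L at -4.54 among early and MSU_101L4A at 0.90, MSU_71L at -3.33 and MSU_90R at 1.91 among late tumors. On slide 1 the early tumors MSU_80L (-3.45) and MSU_92R (-4.02) were of LFD-HFD and the late tumors MSU_56R (2.53) and MSU_62L (-1.79) of HFD mice. In LFD and HFD-LFD, whose early and late tumors were on separate slides, the onsets overlapped. Early LFD tumors ran from -3.16 (MSU_11R) to 2.02 (MSU_17R) and late ones from -4.00 (MSU_13L) to 1.48 (MSU_11L). Early HFD-LFD tumors ran from -4.09 (MSU_107R) to 2.22 (MSU_117L) and late ones from -5.25 (MSU_108R) to 0.91 (MSU_110R). With slide as a fixed block the difference was -4.87 (adjusted p = 0.455). The labels of MSU_40R4A, MSU_57R and MSU_65R differ between the scanner files and the matrix that were deposited, and by the matrix the array read as MSU_57R would be early and that read as MSU_65R late. The order on slide 8 would then not hold, and the difference over all epithelial tumors would be -1.2 (adjusted p = 0.658).

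Krt5, which correlated with Col17a1, differed by -0.68 between early and late epithelial tumors (interval -1.79 to 0.44, adjusted p = 0.61), and by -2.28 with slide as a fixed block (adjusted p = 0.51). Krt14 differed by -0.03 (interval -1.06 to 1.01, adjusted p = 0.989) and Krt17 by -0.19 (adjusted p = 0.929). Krt6b had a difference of 0.57 (adjusted p = 0.813), which turned to -1.41 with slide as a fixed block (adjusted p = 0.8).

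Over all tumors 0.0143% of genes and 0 of the 9 were called for onset, and in spindle cell tumors, with 3 early against 9 late, 0% of 20910 genes and 0 of the 9. In the latter 425 genes and none of the 9 had an unadjusted limma p under 0.05. Col17a1 in the early spindle cell tumors was at 3.60 in MSU_M84R, -3.22 in MSU_M86R and -3.78 in MSU_M129L, so a single tumor set their mean of -1.13 ± 4.10. The interaction of onset and histology was called for 0.00478% of 20910 genes and for 0 of the 9, and was 2.22 for Col17a1 (interval -1.79 to 6.24, adjusted p = 1).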

How the data were processed

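Total RNA of 41 tumors was compared with a common reference on 2-color Agilent arrays. Scanner output was deposited by the authors for every array, from Agilent Feature Extraction, 8.5.1.1 in the submitters' processing notes but, per the file headers, 11.0.1.1 for epithelial and 10.5.1.1 for spindle cell arrays, with the intensity of each spot in both channels, background-subtracted and dye-normalized by that software. They also deposited a matrix of log2 ratios, normalized and filtered, which was used as an alternative. Its columns for MSU_40R4A, MSU_57R and MSU_65R match the scanner files of MSU_57R, MSU_65R and MSU_40R4A, and the scanner labels were used.

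From the intensities, log2 of the processed Cy5 over the processed Cy3 signal was taken per spot. Outlier spots, 1.19% of gene values, were left missing, and spots of a probe were averaged. A probe was kept where at least 80% of arrays had a signal above 10 in each channel, 27307 of 39429, and a gene is its probe of highest mean signal in both channels, which left 20913 genes. Probe positions are those of the scanner files (NCBI37/mm9). Differences were tested with lmFit and eBayes of limma 3.58.1 (statmod 1.5.0 for random blocks) in R 4.3.3, adjusted by Benjamini-Hochberg over all genes, at 0.05 for histology and 0.10 elsewhere. limma takes the place of the SAM test of the methods, which was not run. The fits were tested on simulated data. Alternatives changed the background correction, centring, filter, probe, outlier spots, slide, covariates, threshold and tumors. All 9 genes are named, with up to 3 called genes per companion list (or the 1 of largest difference), the 8 genes most like the set, and marker or companion genes chosen after their values were seen. Some genes of the companion lists are not reported here. The members, lists and tests were chosen with earlier results of these data known. The number of tumors limits the precision.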

Additional observations from a re-analysis of the deposited data

Results flagged for a closer look

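In 45 groups of 4 to 10 tumors, 9 genes in each of the 4 epithelial regimens and in the late spindle cell tumors, 3 values lay far from the rest of their group for its size, and chance gives about 1 in 20 groups. All 3 were of Krt15, and each was the highest of its group. In HFD epithelial tumors MSU_56R was at -1.80, with the nearest at -2.66 (n = 7). In LFD-HFD epithelial tumors MSU_101L4A was at -0.0927, with the nearest at -2.47 (n = 5). Among late spindle cell tumors MSU_M32L was at -0.0464, with the nearest at -2.47 (n = 9).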

How the results depend on the processing

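No paired analysis was possible because the labels give tumor numbers in place of replicate numbers, and at most 1 recurs across the groups of a comparison. Of the 9 genes, 1 was called in spindle cell against epithelial tumors in 3 alternatives: the authors' matrix (1, Krt17 at -1.61, adjusted p = 0.0486), without MSU_M33R and MSU_M84R (1, Krt17 at -1.74, adjusted p = 0.0492) and each probe fitted on its own (1, Krt6b). For the interaction of pubertal diet and histology 7 were called with normexp and loess (all but Krt15 and Trp63, adjusted p between 0.0418 and 0.0937) together with 2364 of all genes, 2 without MSU_42L4B, MSU_60L and MSU_M86R (Krt5 at -3.78 and Krt14 at -3.46) together with 620 of all genes, against 93, and 0 to 1 when each tumor was left out in turn, the 1 being Krt5 without MSU_M18L (-3.68, adjusted p = 0.0861). With normexp and loess but without MSU_M33R and MSU_M84R it was 0. The cause was not tested. In the other 11 comparisons the count of members called was 0 in every alternative run, leaving out each tumor included. The analyses without MSU_M33R and MSU_M84R, by another Trp63 probe and probe by probe were chosen after seeing the data.

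The count over all genes depended on the setting. For spindle cell against epithelial tumors it was 4218, and from 2348 (late tumors only) to 7892 (no filter). For the 4 regimens it was 99, and from 0 (slide as a random block) to 200 (authors' matrix). For HFD-LFD against LFD it was 262, and from 6 (slide as a random block) to 794 (without MSU_42L4B, MSU_60L and MSU_M86R). For early against late epithelial tumors it was 30, and from 0 (slide as a random block, or without MSU_22R) to 289 (without MSU_117L), and it rose with regimen as a covariate. For the pubertal contrast in epithelial tumors it was 0, and 268 with normexp and loess. For the interaction with histology it was 93, and from 26 (threshold 0.05) to 3129 (normexp and loess, without MSU_M33R and MSU_M84R), with 6 without MSU_M76R and 494 without MSU_M18L. In the other comparisons it moved from 2 to between 0 and 8 (pubertal diet, all tumors), from 3 to between 0 and 95 (onset, all tumors), from 0 to at most 7 (HFD against LFD), 2 (LFD-HFD against LFD) and 12 (spindle cell regimens), and from 1 to between 0 and 5 (onset by histology).

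Differences that were not called changed sign in some alternatives. In spindle cell against epithelial tumors the signs of Krt5, Krt14, Krt17, Krt6a, Krt6b and Krt15 held in all 60, and Trp63 (0.02) turned to -0.0526 with normexp and loess, -0.0384 centred on the median, -0.045 in the authors' matrix, -0.81 as the mean over probes, -0.0683 in late tumors, -0.0516 without MSU_42L4B, MSU_60L and MSU_M86R and -1.2 by A_51_P216550. Dsg3 turned to 0.10 with normexp and loess. Leaving out each tumor gave -0.0442 to 0.0548 for Trp63 and -0.77 to 0.0173 for Col17a1. For pubertal diet in epithelial tumors Krt6b (0.20) turned to -0.14 without MSU_40R4A, MSU_57R and MSU_65R, Krt15 (-0.28) to 0.83 with slide as a fixed block and Trp63 (0.08) to -0.0275 by A_51_P216550, and leaving out each tumor gave -0.30 to 0.63 for Krt6b and -0.0054 to 0.65 for Col17a1. For onset in epithelial tumors Krt14 (-0.03) turned to 0.0134 with normexp and loess (0.0134 also without MSU_M33R and MSU_M84R) and 0.0778 with regimen as a covariate, Krt17 (-0.19) to 0.0163 without MSU_42L4B, MSU_60L and MSU_M86R, Krt6b (0.57) to -1.41 and Dsg3 (0.39) to -0.40 with slide as a fixed block, and Trp63 (-0.07) to 0.015 and Dsg3 to -0.0284 in the authors' matrix. Leaving out each tumor gave -0.25 to 0.14 for Krt14 and -0.48 to 0.0163 for Krt17. Slide as a fixed block could be fitted in 2 of the comparisons for which members are shown, pubertal diet and onset in epithelial tumors. Dsg3 was limited by signal, with 8 of 12 spindle cell tumors well above background.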
